A study of Mus musculus with 6 samples.

Results

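B1 elements are short interspersed repeats of the mouse genome. They were taken here as every row of the authors' deposited repeat table with the class SINE/Alu, which gave 154106 of 773731 rows (19.9%) at 149057 loci. A row is 1 locus read in 1 direction, forward (the plus strand of the chromosome) or reverse, and carries a log2 fold change of Trp53_KO over Trp53_WT with a false discovery rate (FDR). Rows were described by repeat name, by read direction and by the authors' genomic annotation.

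The study sequenced total RNA, with ribosomal RNA depleted and strand kept, from ID8, an immortalized line from the ovarian surface epithelium of C57BL/6 mice. Trp53_KO cells were Trp53-/- and Trp53_WT cells were Trp53+/+, with 3 libraries each. All 6 libraries came from untreated cells in asynchronous growth, and nothing in the labels says if the 3 libraries of a genotype were separate cultures or clones. The p-values below then reflect how far the libraries differ, possibly for technical reasons. The series title ties the loss of p53 to a state that mimics viral infection.

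A B1 is descended from the RNA of the signal recognition particle, is the rodent counterpart of the human Alu, and encodes no protein. A complete copy carries an internal RNA polymerase III promoter made of an A box and a B box, but most copies lie inside genes and are copied as part of the gene's own transcript. Neighbouring copies in opposite orientation can fold into double-stranded RNA, which is edited by ADAR and can be sensed by antiviral receptors. The names starting with PB1 are the oldest monomers, the B1F names are early copies, and the B1_Mur, B1_Mus and B1_Mm names are younger.

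The copies below each had a row with an authors' FDR under 0.05. They are shown to let the reader see how far B1 copies differ and which still hold the promoter boxes. They were read from GENCODE M21 transcripts on GRCm38 (mm10), 5′ to 3′ on the strand of the repeat. Capitals mark the first match to the A box, searched as GGCNCANNC, or the B box, searched as GTTCNANNC. All lie in exons of noncoding transcripts, including retained-intron transcripts of Wt1 and Pdhb, and overlap no annotated UTR.
B1_Mus2 in Wt1, chr2:105133760-105133895, minus strand: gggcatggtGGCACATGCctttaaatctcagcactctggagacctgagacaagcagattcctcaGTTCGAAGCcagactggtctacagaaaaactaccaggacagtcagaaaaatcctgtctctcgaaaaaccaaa
B1_Mus2 in Pdhb, chr14:8170680-8170824, minus strand: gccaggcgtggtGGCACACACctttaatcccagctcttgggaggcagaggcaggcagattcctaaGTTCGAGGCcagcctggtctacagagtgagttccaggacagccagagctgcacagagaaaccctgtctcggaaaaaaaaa
B1_Mus2 in Mir155hg, chr16:84714792-84714933, plus strand: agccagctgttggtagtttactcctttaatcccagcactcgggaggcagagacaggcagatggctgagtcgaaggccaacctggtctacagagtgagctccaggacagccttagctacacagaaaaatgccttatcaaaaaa
B1F1 in Gm37795, beside Mir34a, chr4:150069974-150070119, minus strand: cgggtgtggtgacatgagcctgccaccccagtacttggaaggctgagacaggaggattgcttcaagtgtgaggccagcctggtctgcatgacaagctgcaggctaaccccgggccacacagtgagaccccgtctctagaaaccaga
B1F2 in Neat1, chr19:5828953-5829045, plus strand: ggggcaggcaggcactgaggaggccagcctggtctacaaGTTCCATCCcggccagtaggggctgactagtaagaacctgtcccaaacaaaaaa
PB1D7 in Xist, chrX:103462969-103463064, plus strand: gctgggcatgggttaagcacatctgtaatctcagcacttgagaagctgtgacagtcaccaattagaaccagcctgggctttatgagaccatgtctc
B1F2 in 9330188P03Rik, chr14:105593652-105593771, minus strand: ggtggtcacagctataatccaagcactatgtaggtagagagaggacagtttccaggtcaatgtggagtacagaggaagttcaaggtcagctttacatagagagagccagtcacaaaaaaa
B1F2 in Gm47881, chr13:26359087-26359206, plus strand: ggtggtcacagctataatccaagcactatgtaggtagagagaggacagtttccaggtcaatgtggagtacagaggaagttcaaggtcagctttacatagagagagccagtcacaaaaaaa

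The copies in Wt1 and Pdhb hold both boxes, the Neat1 copy holds a B box only, and the others hold neither spelling. The copies in 9330188P03Rik and Gm47881 are identical over their 120 bases although they lie on different chromosomes, so reads inside them cannot be told apart. Among the 11799 loci whose sequence could be read, 33 (0.28%) matched another one of them, and these were the only 2 with a call. Copies outside GENCODE exons could not be searched, so how common exact copies are among all B1 loci is unknown. Over all readable loci, 19.2% held the A box, 29.7% the B box and 8.1% both on the repeat's strand. On the opposite strand, 1.95% held the A box spelling and 0.771% the B box spelling. Both boxes stood in 25.6% of B1_Mm, 21.5% of B1_Mus1 and 23.3% of B1_Mus2 loci but in 0.319% of PB1 loci. Of 68 readable loci with a higher row, 5 held both boxes (7.35%), and of 79 with a lower row, 4 did (5.06%). A p53 half-site pattern stood in 10 of the 68 (14.7%), 11 of the 79 (13.9%) and 10.4% of all readable loci. These are descriptions of letters in the copies.

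The gene counts, 15319956 to 19954170 per library, served to place each B1 beside the gene that holds it, and gene levels are given below in CPM, the count per 1000000 counts of the library after TMM scaling. Trp53 stood at 29.6, 25.5 and 25.3 CPM in the Trp53_KO libraries and at 110.1, 97.3 and 104.7 CPM in Trp53_WT, and Cdkn1a, a classic p53 target, at 1.51 to 1.73 against 37.5 to 46.0 CPM. Trp53_WT replicate 1 stood apart from the other 2 libraries of its genotype: the chi-square per degree of freedom over genes was 27.5 and 26.9 against them, and 2.01 between those 2. The repeat table has no values per library, so no B1 row could be recomputed without that library, while gene results were. All 9 ovarian surface epithelium markers were detected, and their summed level was 3330 to 3640 CPM in Trp53_KO and 3210 to 3430 CPM in Trp53_WT. The 4 fibroblast markers summed to 230.0 to 252 CPM against 102 to 105 CPM, and their part in the results was not tested. In a bulk library, fewer cells of a type and less RNA per cell cannot be told apart. Of the 6 immune markers, Cd3e, Itgam and Adgre1 were at 0 in all libraries. The immune list still summed to 3.96 to 5.98 CPM in Trp53_KO and 26.2 to 30.2 CPM in Trp53_WT, and its 1 tested member was lower. The 4 endothelial markers summed to 1.66 to 2.35 CPM against 0.15 to 0.196 CPM, and their 1 tested member was higher. The part of these 2 lists in the results was not tested.

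Few B1 rows differed between the genotypes. At the authors' FDR under 0.05, 214 B1 rows were higher in Trp53_KO (0.139%) and 282 were lower (0.183%), beside 0.388% higher and 0.284% lower over the whole repeat table. With rows of 1 gene, or within 10 kb of each other outside genes, counted once, the numbers were 166 higher and 159 lower. The median log2 fold change of all B1 rows was 0.000596, with quartiles of -0.66 and 0.54. B2, the other abundant short repeat family, had 744 higher rows of 115413 (0.645%) and 192 lower (0.166%). B4 had 182 higher (0.205%) and 196 lower (0.22%) of 88957 rows. B1 thus had the lowest share of higher rows of these 3 families, while its share of lower rows lay between those of B2 and B4. No test of these shares was made, since rows of 1 transcript share reads and are not independent. Among called rows, the median log2 fold change in the authors' deposited table was 2.67 for higher and -2.51 for lower rows, with extremes of 8.09 and -9.42. Only rows that passed the FDR entered these medians, and a row with few reads can pass only with a large fold change. They therefore do not give the size of change of B1 rows in general.

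The table gives no counts behind a row. Of the 496 called rows, 45 shared both their fold change and their FDR with another called B1 row. The most common such pair in the authors' deposited table was a log2 fold change of 4.73 with an FDR of 0.0194, held by 8 rows. At the edge of the call, the higher rows just inside the threshold were a B1_Mur1 in Mrps16 (log2 fold change 0.86, FDR 0.0490) and a B1_Mur1 in Kif21a (0.93, 0.0487) in the authors' deposited table. Just outside lay a B1F in Lpcat2 (1.52, 0.0523) and a PB1D10 in Eya3 (1.74, 0.0523). On the lower side the last rows inside were a B1F2 in Rdh10 (-1.19, 0.0497) and a B1_Mur1 in Lamp2 (-4.60, 0.0489), and the first outside were a B1_Mur4 in Ctsb (-0.92, 0.0526) and a B1_Mur1 in Phactr4 (-1.17, 0.0549).

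By name, the shares of calls varied without a test of the differences. Among names with at least 500 rows, B1_Mur4 (29 rows, 0.256%) and B1F2 (12 rows, 0.248%) had the largest share of higher rows, and PB1D9 (6 rows, 0.0569%) and B1_Mur3 (5 rows, 0.0674%) the smallest. The largest shares of lower rows were in B1F1 (24 rows, 0.421%) and B1F2 (17 rows, 0.351%), and the smallest in B1_Mur3 (7 rows, 0.0943%) and B1F (12 rows, 0.0998%). B1_Mm, among the youngest names, had 11 higher rows (0.145%) and 8 lower. The 2 commonest names, B1_Mus1 and PB1D10, had 28 and 23 higher rows and 35 and 47 lower rows. Without the rows around Cap1 described below, the share of lower rows was 0.351% in B1F1 and 0.331% in B1F2. The 33 rows named FAM, a fossil monomer, held no call.

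**Figure D1:**
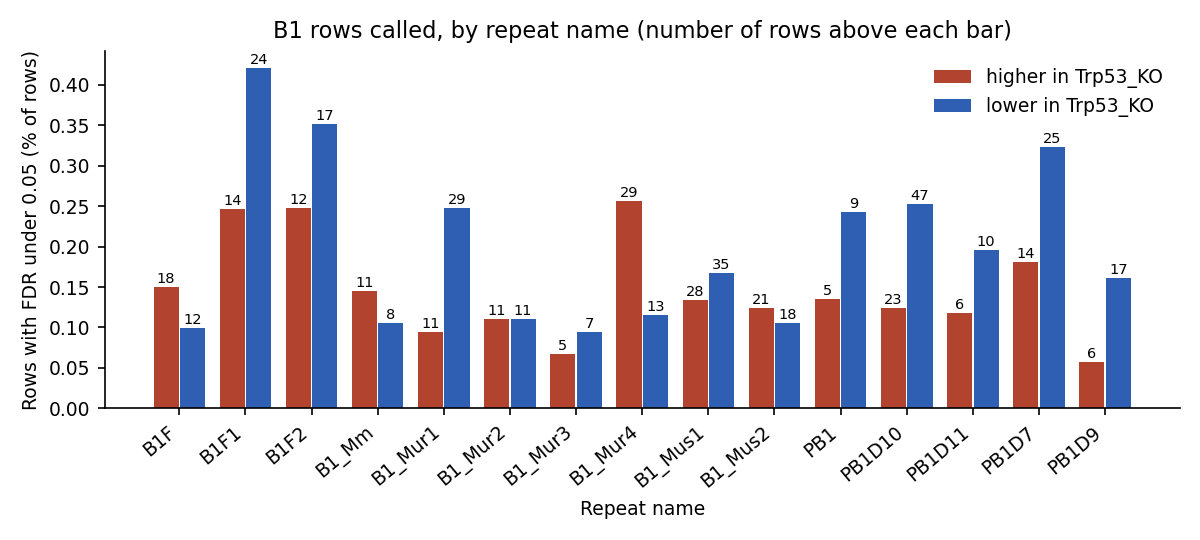
Share of rows with an authors' FDR under 0.05 (vertical axis, % of rows of that name) for the 15 B1 names with at least 500 rows; red bars are rows higher and blue bars rows lower in Trp53_KO, with the number of rows above each bar. B1_Mur4 has the tallest red bar (29 rows) and B1F1 the tallest blue bar (24 rows). The young B1_Mm and B1_Mus names lie below 0.2% in both directions, and so do B1F, B1_Mur2, B1_Mur3, PB1D9 and PB1D11.

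Calls came from both read directions. Forward reads gave 108 higher and 158 lower rows of 78799, and reverse reads gave 106 and 124 of 75307. Rows read in the direction of the B1 itself held 101 higher (0.144%) and 143 lower (0.204%) of 69978, and rows read against it held 113 (0.134%) and 139 (0.165%) of 84128. What the reads followed was the gene: 95.1% of 116653 intron rows with a gene of known strand were read in the gene's direction, whereas 44.2% of them were read in the repeat's direction. In exons and UTRs the gene's direction held for 88.7% of 12186 rows. Only 5049 loci (3.39%) had a row in each direction, and 6 of them were called in both. All 6 were lower and on chromosome 4, with 4 in Ppt1 and 2 in Necap2.

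Most B1 rows, 125354, lay in introns, the annotation with the smallest shares among those that held calls: 121 were higher (0.0965%) and 170 lower (0.136%). Intergenic rows gave 22 higher (0.158%) and 29 lower (0.208%) of 13967. Rows labelled 3′ UTR gave 57 higher (0.589%) and 61 lower (0.631%) of 9671, and rows labelled 5′ UTR gave 14 (0.277%) and 22 (0.435%) of 5057. The 57 rows labelled exon held no call. Pooled into 1 group, the repeats other than B1 had larger shares in each of these annotations. Examples are 0.276% higher and 0.221% lower in introns and 0.949% higher among intergenic rows. Single families did not all lie above B1. In 3′ UTR labels B2 had smaller shares (0.535% in each direction) and B4 larger ones (0.812% higher, 0.768% lower). Among intergenic rows B4 had smaller shares than B1 (0.104% higher, 0.196% lower). Of 17833 intergenic B2 rows, 1.78% were higher and 0.168% lower.

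**Figure D2:**
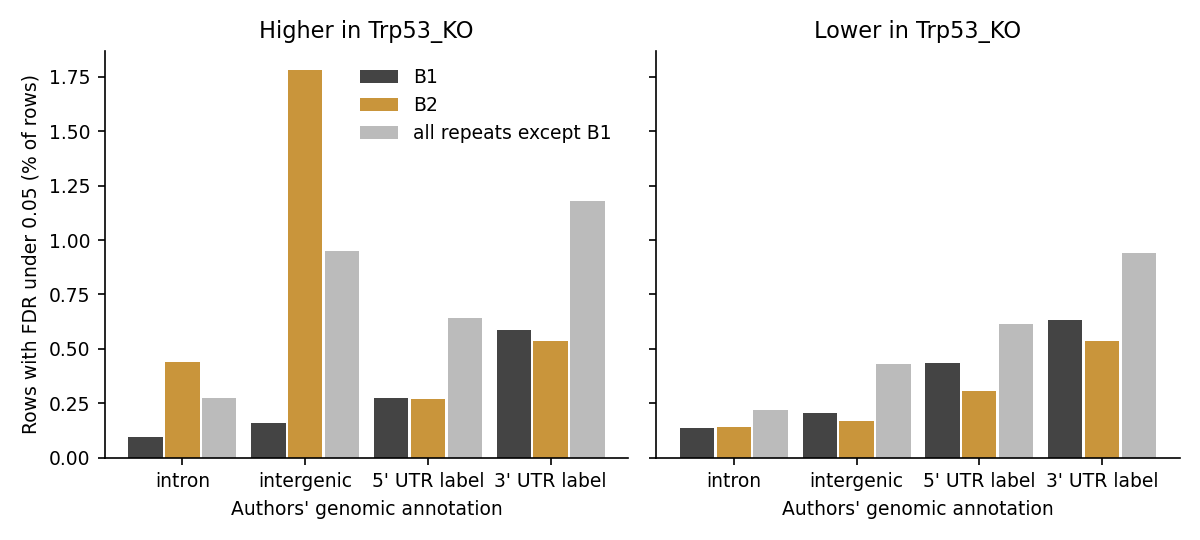
Share of rows with an authors' FDR under 0.05 (vertical axis, % of rows) by genomic annotation for B1 (dark), B2 (ochre) and all repeats except B1 (grey); left panel, rows higher in Trp53_KO; right panel, rows lower. B1 bars are lowest in introns (0.0965% higher) and tallest in 3′ UTR labels (0.589% higher, 0.631% lower), and the intergenic B2 bar on the left reaches 1.78%.

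The UTR labels need care. Of 5145 B1 rows that lay wholly in GENCODE exons, touched no GENCODE UTR and were still labelled UTR, all 2609 labelled 3′ UTR were in genes of the plus strand and all 2536 labelled 5′ UTR in genes of the minus strand. The Xist and Neat1 copies printed above, which are in noncoding RNAs, carry such labels. The label therefore marks exons of noncoding and retained-intron transcripts as well as true UTRs.

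Called B1 rows mostly changed with the gene that holds them. The 192 higher rows inside genes lay in 144 genes, and 186 of the rows lay in genes with enough counts to test. Of these 186 rows, 161 (86.6%) were in genes higher in Trp53_KO by edgeR's quasi-likelihood test at a Benjamini-Hochberg adjusted p under 0.05, 2 in lower genes and 23 in genes not called. Over all genes tested, 14.1% were higher and 16.1% lower, and of all B1 rows in tested genes 13.3% lay in higher and 14.3% in lower genes. The 253 lower rows inside genes lay in 137 genes. Of 248 in tested genes, 201 (81.0%) were in lower genes, 1 was in a higher gene (Airn, named after its value was seen) and 46 were in genes not called. A B1 row and its gene come from the same libraries and can share reads, so these counts describe overlap and are not independent support. For 137 called exon and UTR rows the ratio of the row's to the gene's log2 fold change had a median of 1.08 (quartiles 0.964 and 1.3). Only rows in genes that were themselves called and passed a minimum change entered this ratio. It thus describes rows and genes selected because both changed.

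B1 rows in genes that changed were shifted as a whole, called or not. In 3′ UTR labels read in the gene's direction, 840 rows in higher genes had a median log2 fold change of 0.40, 1057 rows in lower genes -0.46 and 5338 rows in genes not called 0.000757. In introns the medians were 0.36 over 15315 rows, -0.40 over 15912 rows and 0.000755 over 79133 rows. Rows read against the gene's direction had medians of 0.000893 (583 intron rows, higher genes) and 0 (780 intron rows, lower genes).

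**Figure D3:**
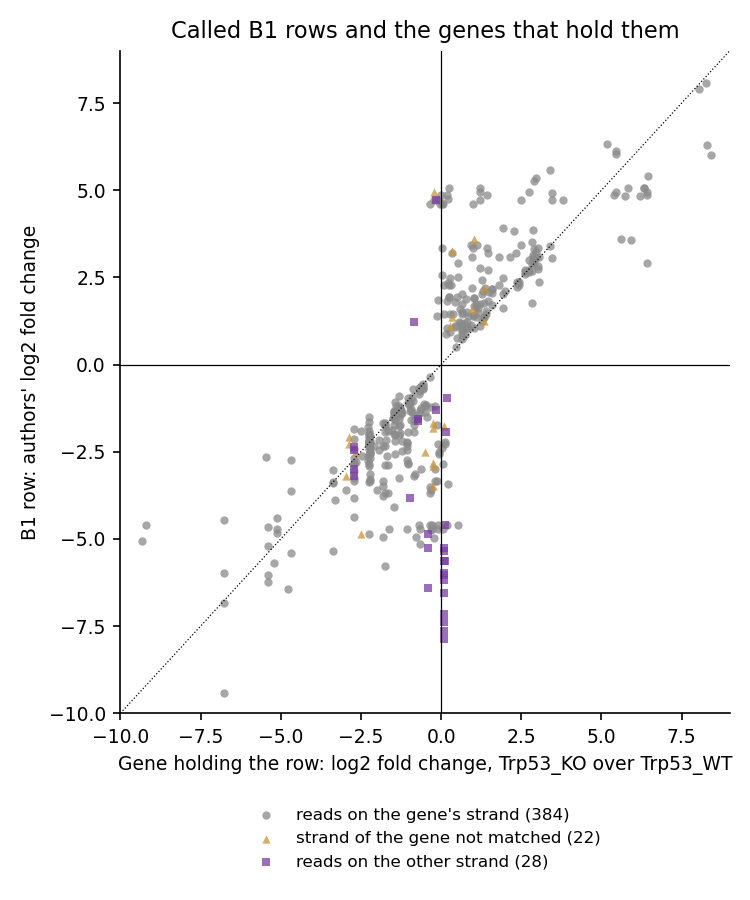
Each point is a called B1 row inside a tested gene: horizontal axis, log2 fold change of the gene (edgeR); vertical axis, the authors' log2 fold change of the row; the dotted line marks equal values. Grey circles, reads on the gene's strand, lie mostly in the same quadrant as the gene; purple squares, reads on the other strand, include a column below -5 at a gene change near 0, most of them in Phactr4.

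The 2 higher rows of lowest FDR sat in Upk3b and Lrrn4, which are among the 9 ovarian surface epithelium markers. The list as a whole did not rise: 4 members were higher (Upk3b, Lrrn4, Wt1 and Krt7), 4 were lower (Bnc1, Krt8, Krt19 and Msln) and Krt18 was not called. Upk3b, a uroplakin of mesothelial cells, stood at 548, 473 and 572 CPM in Trp53_KO and 73.0, 69.0 and 79.0 CPM in Trp53_WT. The groups did not overlap, and the gene was higher by 2.85 on the log2 scale (SE 0.0909, edgeR adjusted p = 2.75e-08). Its 3′ UTR PB1D10 at chr5:136044355-136044469 had a log2 fold change of 2.88 and an FDR of 2.65e-74 in the authors' deposited table, the lowest FDR of all B1 rows. A PB1 in a Upk3b intron had a log2 fold change of 2.69 there.

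Lrrn4, another mesothelial membrane protein, stood at 65.4, 64.8 and 66.4 CPM in Trp53_KO and 0.135, 0.247 and 0.322 CPM in Trp53_WT, a gene near silent in the wild type. Its B1F2 at chr2:132868935-132869017 was higher by 7.89 on the log2 scale in the authors' deposited table, and the gene by 8.04 (edgeR adjusted p = 1.11e-09). Wt1, the transcription factor of the coelomic epithelium, stood at 318, 341 and 358 CPM in Trp53_KO against 201.2, 187 and 188 CPM, again without overlap. Its B1_Mus2 printed above, in a retained-intron transcript and labelled 3′ UTR, was higher by 1.07 in the authors' deposited table. The gene was higher by 0.82 (edgeR adjusted p = 1.26e-05).

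Further higher rows lay in genes of varied function. Fzd6, a Wnt receptor, stood at 86.9 to 99.6 CPM in Trp53_KO and 15.2 to 15.4 CPM in Trp53_WT, and the authors' deposited table gave its 3′ UTR B1_Mur4 a log2 fold change of 2.71. Akap5, a kinase anchor, stood at 49.5 to 51.4 against 5.60 to 7.37 CPM, with a B1_Mur4 at 3.30 in the authors' deposited table. S1pr5, a sphingosine phosphate receptor, stood at 24.6 to 28.7 against 2.32 to 2.63 CPM, with a PB1D10 at 3.06. Adamts9, a secreted matrix protease, stood at 179 to 198 against 24.2 to 30.9 CPM and held 4 higher rows, led by a B1F1 with 3.85 in the authors' deposited table. Snhg18, a small nucleolar RNA host gene, stood at 7.70 to 8.99 against 0.0675 to 0.214 CPM, with an intronic PB1D10 at 4.82. Mir155hg, the host of the miR-155 precursor, stood at 3.19 to 3.21 against 1.15 to 1.501 CPM, and its B1_Mus2 was at 2.04 in the authors' deposited table. In none of these 6 genes did the genotypes overlap.

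Upk3b, Adamts9, Mir99ahg, Lsr and Frmd4b held the most higher rows, 4 each. Mir99ahg, the host of a microRNA cluster, stood at 23.8 to 27.0 against 3.65 to 4.05 CPM. The 2 higher rows inside genes that went the other way were in Dopey1 and St3gal6, and they were named here after their values were seen.

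**Figure D4:**
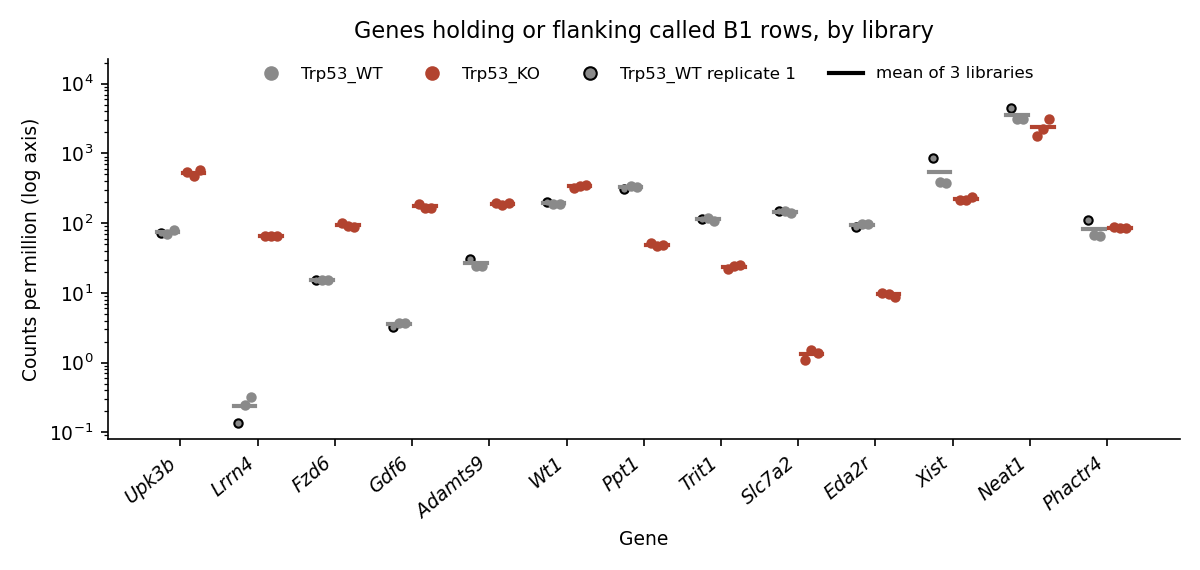
Levels in CPM (log axis) of 13 genes that hold or flank called B1 rows; grey points are the 3 Trp53_WT libraries, with replicate 1 outlined in black, red points the 3 Trp53_KO libraries, and short lines the group means. The genotypes separate for every gene drawn except Neat1 and Phactr4, and replicate 1 of Trp53_WT is the highest grey point for Xist (862 CPM), Neat1 (4474 CPM) and Phactr4 (112.5 CPM).

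The most strongly called lower rows lay in genes near silent or much reduced in Trp53_KO. Slc7a2, a cationic amino acid transporter, stood at 1.07, 1.51 and 1.38 CPM in Trp53_KO and 149, 147 and 138 CPM in Trp53_WT. Its 3′ UTR B1_Mus1 at chr8:40917758-40917889 was lower by -9.42 on the log2 scale in the authors' deposited table, the largest change of any called B1 row, and the gene by -6.78 (edgeR adjusted p = 1.11e-09). Eda2r, a death-domain receptor and known p53 target, stood at 10.1, 9.60 and 8.83 CPM against 89.4, 97.0 and 96.7 CPM. Its 3′ UTR PB1D10 had a log2 fold change of -3.90 in the authors' deposited table, and a B1_Mur3 that lay 364 bases past its end, labelled intergenic, had -3.97.

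Slc14a1, a urea transporter, stood at 22.7 to 26.7 CPM against 242 to 266 CPM, and the authors' deposited table gave -3.39 for a PB1D10 and -3.38 for a B1_Mus1 in its 3′ UTR. Cldn2, a pore-forming tight junction claudin, stood at 2.91 to 3.02 against 123 to 126 CPM, with 4 lower rows led by a B1F2 at -5.19. Neither gene's genotypes overlapped.

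In Xist and Neat1, 1 library weighed on the gene's level. Xist, the RNA that coats the inactive X chromosome, stood at 213, 217 and 237 CPM in Trp53_KO and at 862, 393 and 383 CPM in Trp53_WT. The 2 lower Trp53_WT values lay above all Trp53_KO values, and replicate 1 lay far above both. The gene was lower by -1.30 on the log2 scale (SE 0.271, edgeR adjusted p = 0.00542) and by -0.80 without Trp53_WT replicate 1 (adjusted p = 1.72e-08). Its PB1D7 printed above had a log2 fold change of -1.73 in the authors' deposited table.

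Neat1, the RNA scaffold of paraspeckles, which retain RNAs with inverted repeats, held 4 lower B1 rows at -0.57 to -0.69 in the authors' deposited table. The gene stood at 1800.0, 2217 and 3123 CPM in Trp53_KO and 4474, 3102 and 3088 CPM in Trp53_WT, so the groups overlapped. Its change of -0.58 did not pass (edgeR adjusted p = 0.0568) and passed in 6 of 11 alternatives, with values of -0.82 to -0.38.

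Lower rows were gathered on chromosome 4, which held 83 of the 282 (0.804% of its 10317 rows). Within 300 kb of the start of Cap1, which encodes an adenylyl cyclase-associated actin regulator, 53 of 104 B1 rows were lower and 0 were higher. The lower rows ran from -39.5 kb to 173 kb on the chromosome relative to that start. Between chr4:122846521-122884160, across Ppt1 and Cap1, all 37 B1 rows were below 0 (median log2 fold change -2.51) and 25 were called. Across Trit1 and the bases past its end, all 32 rows were below 0 (median -2.24) and 24 were called. These rows were of many names and were mostly labelled intron, with some in Ppt1 labelled 3′ UTR and those past Trit1 labelled intergenic.

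The genes of this stretch showed the same step. Ppt1, a lysosomal thioesterase, stood at 52.6, 46.8 and 48.2 CPM in Trp53_KO and 314, 339 and 328 CPM in Trp53_WT. Trit1, a transfer RNA modifying enzyme, stood at 22.3, 24.0 and 25.2 CPM against 113.9, 118 and 107 CPM. Cap1 stood at 199, 189.8 and 194.5 CPM against 888, 889 and 936 CPM. Mfsd2a, a lipid transporter, stood at 19.7 to 25.3 CPM against 69.2 to 79.3 CPM, and 4 of its 11 B1 rows were called. No genotype overlapped in any of the 4, and the edgeR log2 fold changes were -2.73, -2.24, -2.22 and -1.74 in that order. Ppie, a cyclophilin in the same window, was higher by 0.36 (edgeR adjusted p = 0.00821), with a median of 0.19 over its 3 B1 rows and no call. Without this window, 229 lower B1 rows remained, an alternative chosen after the data were seen.

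**Figure D5:**
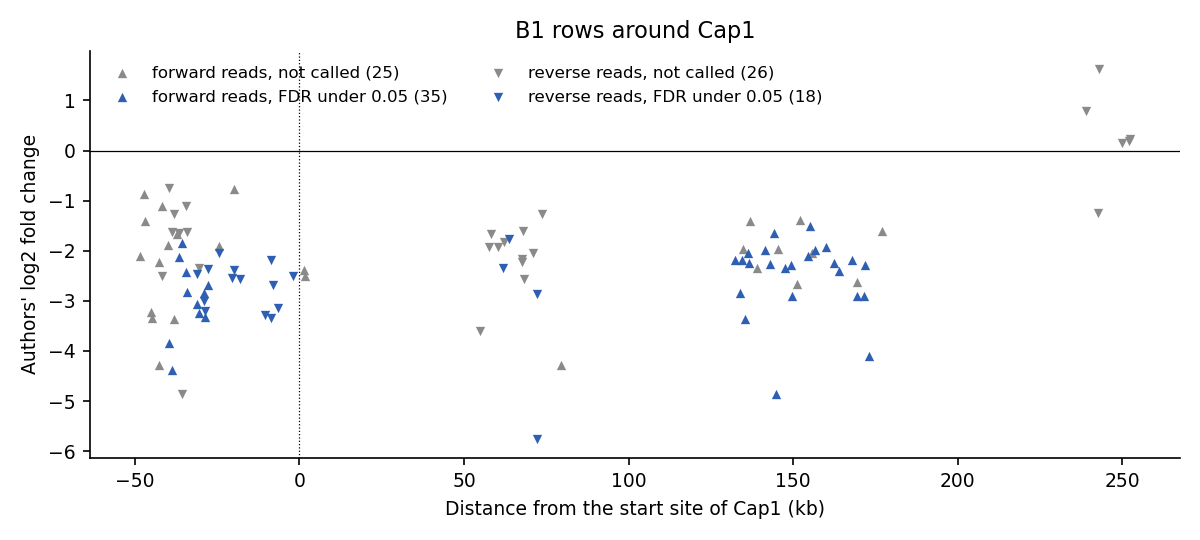
B1 rows within 300 kb of the Cap1 start: horizontal axis, distance along the chromosome in kb (Cap1 runs to the left); vertical axis, the authors' log2 fold change; triangles up are forward and triangles down reverse reads; blue marks an FDR under 0.05. The 53 blue points lie between -39.5 and 173 kb, none above 0, and the few points above 0 lie at the right edge.

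A second group on chromosome 4 surrounded Mir34a, the gene of miR-34a, a microRNA that p53 is known to switch on. Within 15 kb of the hairpin (chr4:150068454-150068555, plus strand), all 13 B1 rows were forward reads, the direction of Mir34a, and all 13 were below 0. Of these, 6 were called lower, from a B1F1 at -3.59 in the authors' deposited table, upstream of the hairpin, to 2835 bases past it (a B1_Mus1 at -3.15). The nearest, a PB1 that ends 251 bases before the hairpin, had -3.65 in the authors' deposited table. The authors labelled 4 of the 6 intergenic. The other 2, among them the B1F1 printed above, lay in RP23-169H13.6 of the authors' annotation, where GENCODE M21 has the noncoding transcript Gm37795. RP23-169H13.6 had 30, 17 and 24 counts in Trp53_KO and 126, 215 and 166 in Trp53_WT, without overlap, and was lower by -2.86 on the log2 scale (edgeR adjusted p = 2.00e-06). Mir34a itself had 0 counts in each Trp53_KO library and 1, 3 and 2 in Trp53_WT, too few to test in a library that does not select small RNA.

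The rows in Phactr4, an actin and phosphatase regulator, ran against their gene. Its 11 lower B1 rows, within chr4:132393990-132402100, were forward reads at -7.86 to -5.25 in the authors' deposited table, while Phactr4 is on the minus strand. The 67 B1 rows of the gene read in its own direction held no call and had a median of 0.21. Phactr4 stood at 88.2, 85.1 and 85.4 CPM in Trp53_KO and 112.5, 68.0 and 64.6 CPM in Trp53_WT, so the groups overlapped. It was not called (log2 fold change 0.08, edgeR adjusted p = 0.774), but without Trp53_WT replicate 1 it was higher by 0.38 (adjusted p = 0.000256). Over all intron rows read against their gene, 25 of 5703 were lower (0.438%) and 2 higher. Outside Phactr4 these lower rows lay in Arhgef10l (3 rows), Ppt1 (3 rows), Necap2 (2 rows), Jak3 (2 rows) and, with 1 row each, Cfap43, Itgb6, Otulin and Polr2b.

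Necap2, a clathrin adaptor subunit, held 2 copies on chr4:141075432-141075901 that were lower in both directions. In the gene's direction the authors' deposited table gave -2.23 and -2.28, and against it -4.60 and -5.64. The gene itself stood at 39.9 to 44.5 CPM in Trp53_KO and 36.0 to 42.0 CPM in Trp53_WT and was not called (edgeR adjusted p = 0.306). In Ppt1 the 4 copies called in both directions had -2.68 to -3.33 in the gene's direction and -2.36 to -3.21 against it.

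Called intergenic B1 rows were set beside the nearest tested gene on the read strand. Uncalled intergenic rows were not, so their share is unknown. Of 22 higher rows, 12 had a tested gene on the read strand within 10 kb, and 10 of these genes were higher. The strongest was a B1_Mus1 at chr4:9862611-9862757 with 8.09 in the authors' deposited table, 266 bases past the end of Gdf6, a bone morphogenetic protein ligand. Gdf6 stood at 189.5, 165 and 167 CPM in Trp53_KO and 3.24, 3.71 and 3.70 CPM in Trp53_WT (log2 fold change 5.60, edgeR adjusted p = 1.11e-09). Of 29 lower rows, 16 had such a gene, which was lower for 13 and higher for 3. Several of the 13 lay past Trit1, among them a B1_Mus2 at -2.91 that lay 335 bases past its end, so these rows are not separate genes. Beside these counts stand the shares over all genes tested, 14.1% higher and 16.1% lower. Higher rows with no gene of either strand within 10 kb numbered 8, and lower rows 1. The best called of the 8 was a PB1D7 at chr17:80492099-80492188 with 1.52 in the authors' deposited table.

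Neighbouring copies of opposite orientation were counted beside the calls. A B1 of opposite orientation stood within 500 bases of 21.0% of all B1 rows, 21 of the 214 higher rows (9.81%) and 46 of the 282 lower rows (16.3%). In introns the shares were 21.2% of all rows, 9.92% of higher rows and 21.2% of lower rows. In 3′ UTR labels they were 22.0%, 8.77% and 8.2% in the same order. These shares were not tested.

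Genes that make, bind, sense or silence B1 RNA were followed in 5 lists. Of 25 genes of RNA polymerase III and its factors, 3 were higher, near the 14.1% over all genes, and 0 lower beside 16.1%, with a median log2 fold change of 0.11 beside -0.02 over all tested genes. Polr3f, a polymerase subunit, was higher by 0.32 (edgeR adjusted p = 0.00976), and Crcp by 0.24 (adjusted p = 0.0408), a call lost in 8 of 11 alternatives with adjusted p of 0.0513 to 0.148. Of 8 proteins of the signal recognition particle, Srp54b alone passed, at -0.22 (edgeR adjusted p = 0.0450, lost in 9 of 11 alternatives with 0.0602 to 0.185). Srp9 and Srp14, which bind the fold that B1 RNA shares with its ancestor, had log2 fold changes of 0.11 and 0.13 (edgeR adjusted p = 0.342 and 0.214).

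Genes that edit or sense double-stranded RNA were the list with most lower members: of 17 tested, 12 were lower and 0 higher, with a median of -0.67. Over all genes tested, 16.1% were lower and 14.1% higher, with a median of -0.02. Oas3, a synthetase that activates RNase L, stood at 0.612, 0.121 and 0.160 CPM in Trp53_KO and 5.33, 4.01 and 4.45 CPM in Trp53_WT (-3.86, edgeR adjusted p = 3.71e-05). Adarb1, an RNA editor, stood at 2.66 to 3.52 against 11.4 to 12.2 CPM (-1.96, edgeR adjusted p = 3.67e-06). Ddx58, which encodes the sensor RIG-I, stood at 45.0 to 47.8 against 71.4 to 76.8 CPM (-0.67, edgeR adjusted p = 7.27e-05). Adar, the main editor of inverted repeats, stood at 60.4 to 70.3 against 72.7 to 83.6 CPM. Its change of -0.25 passed narrowly (edgeR adjusted p = 0.0499) and was lost in 9 of 11 alternatives, with adjusted p of 0.0543 to 0.135. Ifih1, which encodes the sensor MDA5, did not pass (0.02, edgeR adjusted p = 0.874), and neither did Eif2ak2, which encodes the kinase PKR (-0.18, adjusted p = 0.0846, and 0.0245 without Trp53_WT replicate 1).

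Of 10 genes for nuclear retention of inverted repeats and repeat exon control, 3 were higher, namely Sfpq, Pspc1 and Hnrnpc at 0.29, 0.29 and 0.31, and 0 were lower (median 0.12). The Pspc1 call was lost in 3 of 11 alternatives and the Hnrnpc call in 1 of 11. Of 17 SINE silencing genes, 6 were higher and 1 lower (median 0.12). Beside both lists stand the shares over all genes tested, 14.1% higher and 16.1% lower. Dnmt3a, a DNA methyltransferase, stood at 69.4 to 75.5 CPM in Trp53_KO and 50.3 to 59.2 CPM in Trp53_WT (0.45, edgeR adjusted p = 0.00311). Suv39h1, a histone H3 lysine methyltransferase, was the lower member, at 71.3 to 79.3 against 96.3 to 108 CPM (-0.43, edgeR adjusted p = 0.00185).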

How the data were processed

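The tools named in the submitters' processing notes are STAR, featureCounts and edgeR, with the build mm10; versions and settings were not given in the sources used here. Deposited were the authors' whole-number gene counts of each library, and a repeat table with 1 log2 fold change and 1 FDR (an adjusted p-value) for each locus in each direction but nothing per library, so the depth behind a repeat row is unknown. B1 rows were counted as called at FDR under 0.05, with no test added. Gene counts were tested with edgeR 4.0.16 (quasi-likelihood, TMM, filterByExpr, genotype only, all 6 libraries, Benjamini-Hochberg adjustment at 0.05) in R 4.3.3; the procedure was tested on simulated data. DESeq2 1.42.0 and limma 3.58.1 were alternatives. Replicate numbers did not pair the libraries. GENCODE M21 gave gene strand, UTRs, distances and the B1 sequences inside transcripts.

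Named loci were the 5 rows of lowest FDR in each direction, the 2 of lowest FDR in each annotation, loci called in both directions and rows at the threshold; named genes were their hosts, those with most called rows, and up to 3 of lowest adjusted p in each direction per list, with Ifih1, Adar, Eif2ak2, Srp9 and Srp14 always. Genes of the printed sequences and around Cap1 and Mir34a were added after their values were seen. Members and lists were chosen with earlier results of these data known. A few items are not reported here.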

Additional observations from a re-analysis of the deposited data

How the results depend on the processing

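At an FDR under 0.01, 108 B1 rows were higher and 171 lower. Intergenic rows alone gave 22 and 29, and rows with no gene within 10 kb gave 8 and 1. With each gene or group within 10 kb counted once, 214 higher rows became 166 and 282 lower rows 159, so that higher calls outnumbered lower ones. A change of at least 1 on the log2 scale left 205 and 267, and removing rows around Cap1, added after seeing the data, left 214 and 229. Leaving out 1 library at a time gave 2977 to 4984 called genes (4130 with all), the most without Trp53_WT replicate 1, and 204 to 225 called genes among those with called B1 rows (220 with all). Replicate numbers shared no deviation (correlations -0.0532, 0.077 and -0.122), and the replicate block gave 3806 and 221. Of 726 values for 66 named genes under the alternatives, 678 kept direction and call, 39 lost the call, 9 gained it and 0 reversed; the cause was not tested. The unknown read counts limit what a repeat row can show.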
